A study of Mus musculus with 6 samples.

Results

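The metalloproteinases, their TIMP inhibitors and the lysyl oxidases of the kidney were examined as 10 genes chosen by symbol (Mmp2, Mmp12, Mmp13, Mmp14, Adam17, Adamts1, Timp2, Timp3, Lox and Loxl2), out of 33696 genes counted in single kidney cells. All 10 were found. The libraries, 1 per mouse, came from 3 sham and 3 DOCA-salt kidneys and were made with the 3′ droplet method of 10x Genomics. The mice were male C57BL/6 of 8 to 10 weeks. DOCA-salt mice had lost the left kidney and received, 1 week later, a pellet of 50 mg deoxycorticosterone acetate (DOCA, a mineralocorticoid) with 1% NaCl to drink for 21 days. Sham mice had a sham surgery, no pellet and normal water, so that DOCA-salt and the loss of a kidney cannot be told apart. The question was how the level of each gene differed between sham and DOCA-salt mice, in the whole kidney and within cell types.

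Matrix metalloproteinases are zinc enzymes that cut collagens, elastin and other matrix proteins, and TIMPs are secreted proteins that block them. ADAM17 sheds membrane proteins such as TNF from the cell surface, ADAMTS enzymes cut proteoglycans, and lysyl oxidases crosslink collagen and elastin. In the kidney these genes are best known from scarring of the interstitium, the space between tubules where fibroblasts and macrophages gather.

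Mmp12 and Mmp13 lie in a row of 10 Mmp genes on chromosome 9. On GRCm39, Mmp13 spans chr9:7272514-7283331 and Mmp12 chr9:7344381-7369499, both on the plus strand and 61.0 kb apart. Their promoter sequences are shown because these 2 neighbors were the members with most of their UMIs in macrophages in each mouse, as described below. RefSeq windows (GRCm38.p6) were at hand for 7 members, not for Mmp2, Lox and Loxl2, with 8 windows of 300 bases in all. Capitals mark TGANTCA, the letters bound by AP-1 factors, and TATAAA, the letters of a TATA box.
Mmp13, chr9:7272264-7272563, plus strand: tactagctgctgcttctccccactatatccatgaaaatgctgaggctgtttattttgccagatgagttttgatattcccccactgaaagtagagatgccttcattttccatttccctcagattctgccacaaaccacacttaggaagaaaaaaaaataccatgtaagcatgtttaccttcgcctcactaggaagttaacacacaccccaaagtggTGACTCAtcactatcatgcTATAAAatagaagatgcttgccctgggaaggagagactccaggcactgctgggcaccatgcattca
Mmp12, start 2, chr9:7347124-7347423, plus strand: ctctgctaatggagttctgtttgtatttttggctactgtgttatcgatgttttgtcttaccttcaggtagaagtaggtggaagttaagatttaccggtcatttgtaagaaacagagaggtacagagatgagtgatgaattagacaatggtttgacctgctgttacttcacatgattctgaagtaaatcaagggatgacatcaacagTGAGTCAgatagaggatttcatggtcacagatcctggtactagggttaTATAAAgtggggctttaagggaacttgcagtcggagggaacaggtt
Of the 8 windows, these 2 held TGANTCA, beginning 35 and 44 bases before the annotated start. TATAAA was found in both, 16 bases before the annotated start of Mmp13 and 4 bases after that of Mmp12, and in the window of Adamts1, 32 bases before its start. Searched on both strands, 7.81% of 32851 mouse promoters held TGANTCA, 13.6% held TATAAA and 1.54% held both. The other start of Mmp12 held neither. These letters are a description of the sequence and were not tested for binding.

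The other members lie on separate chromosomes, with Mmp14 and Loxl2 both on chromosome 14. On GRCm39, Mmp2 spans chr8:93553902-93580049, Mmp14 chr14:54668878-54682821, Timp3 chr10:86136236-86185371 and Loxl2 chr14:69846209-69933283 on the plus strand. Timp2 spans chr11:118191887-118246566, Adam17 chr12:21373510-21423672, Adamts1 chr16:85590579-85600009 and Lox chr18:52649136-52663110 on the minus strand. Mmp14 overlaps Gm56768 and Timp2 overlaps Cep295nl on the same strand, where counts of the 2 genes could be split.

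The 6 libraries held 11058 to 14449 barcodes and 93172739 to 137819127 unique molecular identifiers (UMIs, 1 per captured transcript). After filters and removal of the barcodes with the highest doublet scores, 55630 cells were clustered, with a median of 4787 to 9148 UMIs per cell in each mouse. No more than 41 barcodes were shared by any 2 libraries. Cells were named from marker genes, without use of the 10 members. A DOCA-salt mouse gave 438 to 711 macrophages and 212 to 297 fibroblasts, against 139 to 161 and 7 to 21 in a sham mouse. An unnamed cluster of 670 cells led by Bgn and Loxl1 came to 622 cells from DOCA-salt mouse 2, and the number of members changed in the whole kidney was the same without it. Levels are given as CPM, the UMIs of a gene scaled to 1e6 UMIs of the cells named, in the order of mouse 1, 2 and 3. They follow capture at the 3′ end and were not compared between genes. The p-values measure the spread between these mice.

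Over all cells of the kidney, 8 of the 10 members were higher in DOCA-salt mice and none was lower, by edgeR's quasi-likelihood test with Benjamini-Hochberg adjusted p under 0.05. Among all 19658 genes tested, 11.5% were higher and 5.69% lower by the same rule. The median log2 change was 1.17 over the members and -0.02 over all genes. The members were chosen with earlier results of these data known, so these counts describe them and do not test them as a group. In sums over a kidney, more cells of a type and more RNA per cell cannot be told apart.

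Mmp2 encodes gelatinase A, which cuts denatured and basement membrane collagen. It stood at 0.763, 0.736 and 0.937 CPM in sham and 6.90, 12.6 and 13.03 CPM in DOCA-salt mice. Every DOCA-salt mouse lay above every sham mouse, and Mmp2 rose 12.2-fold (log2 change 3.61 ± 0.27 SE, adjusted p = 0.000309, edgeR).

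Mmp14, the membrane-bound protease that activates pro-MMP2, was measured at 2.20, 1.38 and 2.33 CPM in sham and 6.48, 13.9 and 11.8 CPM in DOCA-salt mice. The groups did not overlap, and Mmp14 rose 4.97-fold (log2 change 2.31 ± 0.31 SE, adjusted p = 0.00234, edgeR).

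Mmp12, the elastase of macrophages, had 3.73, 6.98 and 2.81 CPM in sham and 6.25, 19.0 and 15.9 CPM in DOCA-salt mice. DOCA-salt mouse 1 lay below sham mouse 2. The rise of 1.49 ± 0.43 (log2, SE) was just past the threshold (adjusted p = 0.0491, edgeR). The call was lost without sham mouse 1, sham mouse 3, DOCA-salt mouse 2 or DOCA-salt mouse 3 (adjusted p = 0.132 to 0.160).

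Mmp13, a collagenase, was at 5.12, 5.17 and 4.99 CPM in sham and 2.90, 3.81 and 6.61 CPM in DOCA-salt mice. The sham mice lay close together, inside the spread of the DOCA-salt mice. The log2 change of -0.33 ± 0.27 SE did not pass the test (adjusted p = 0.440, edgeR).

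Among the inhibitors, Timp2 was at 33.7, 38.05 and 36.3 CPM in sham and 59.2, 73.7 and 78.3 CPM in DOCA-salt mice. Timp2 rose 1.80-fold without overlap (log2 change 0.85 ± 0.11 SE, adjusted p = 0.00223, edgeR). Timp3, which binds the matrix and also blocks ADAM17, was at 2384, 2298 and 1833 CPM in sham and 2118, 1974 and 2015 CPM in DOCA-salt mice. These ranges overlapped, and the log2 change of -0.21 had an interval from -0.49 to 0.07 (95%, adjusted p = 0.361, edgeR).

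Adam17 was at 24.3, 31.0 and 26.3 CPM in sham and 36.9, 37.4 and 48.1 CPM in DOCA-salt mice. It rose 1.38-fold without overlap (log2 change 0.47 ± 0.13 SE, adjusted p = 0.0444, edgeR). This call was also near the threshold and was lost without any mouse but sham mouse 2 (adjusted p = 0.0577 to 0.165). Adamts1, which cuts aggrecan and versican, was at 71.7, 62.9 and 70.9 CPM in sham and 96.1, 115 and 114 CPM in DOCA-salt mice. Adamts1 rose 1.45-fold without overlap (log2 change 0.54 ± 0.10 SE, adjusted p = 0.00987, edgeR).

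The lysyl oxidases changed by larger factors. Lox was at 1.13, 0.971 and 1.40 CPM in sham and 5.60, 7.30 and 8.22 CPM in DOCA-salt mice, a 5.54-fold rise without overlap (log2 change 2.47 ± 0.21 SE, adjusted p = 0.00041, edgeR). Loxl2, which also crosslinks collagen IV, was at 0.575, 0.427 and 0.829 CPM in sham and 3.69, 7.78 and 6.09 CPM in DOCA-salt mice. Loxl2 rose 8.80-fold, again without overlap (log2 change 3.14 ± 0.34 SE, adjusted p = 0.00099, edgeR). Of all genes, 26.6% were higher in every DOCA-salt mouse than in every sham mouse, against 7 of the 10 members. As the members were chosen with earlier results known, this too is a description.

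**Figure D1:**
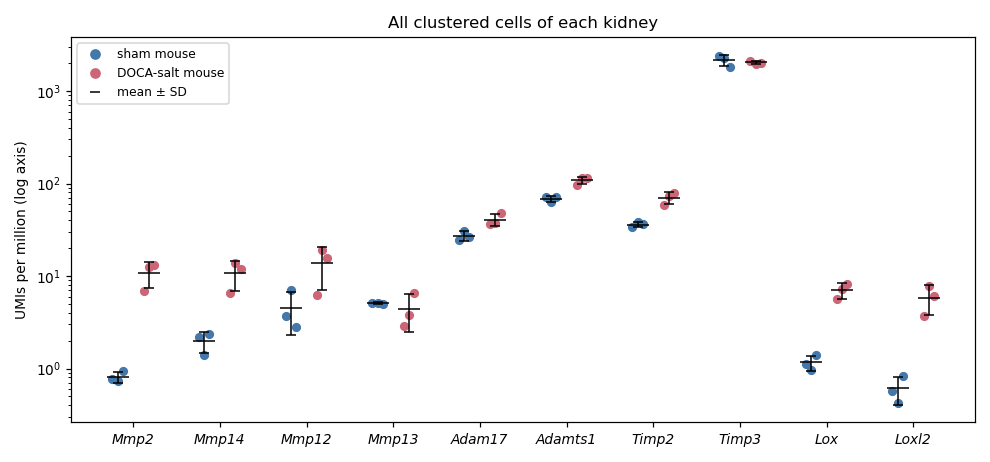
Level of each member in all cells of each kidney, in CPM on a log axis. Points are mice and bars the mean ± SD of 3 mice; Mmp2, Mmp14, Timp2, Adam17, Adamts1, Lox and Loxl2 show no overlap between sham and DOCA-salt mice, while Mmp12, Mmp13 and Timp3 do.

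The cells that held these transcripts differed by member and by group. In sham mice 74.8% ± 3.53 (SD, n = 3) of Mmp2 UMIs were in endothelial cells and 12.2% ± 5.75 in fibroblasts. In DOCA-salt mice 81.4% ± 4.70 were in fibroblasts and 5.53% ± 2.94 in endothelial cells. Behind these shares stood 180 Mmp2 UMIs over the sham kidneys and 2861 over the DOCA-salt kidneys, and they cover cell number and level per cell together.

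For Lox and Loxl2 the fibroblast share was also larger in DOCA-salt mice, but endothelial cells held less of them in sham mice than of Mmp2. The fibroblast share of Lox was 4.24% ± 4.40 (SD, n = 3) in sham and 67.6% ± 7.61 in DOCA-salt mice, while endothelial cells went from 28.4% to 6.28% and smooth muscle cells and pericytes from 19.5% to 11.2%. The fibroblast share of Loxl2 was 5.32% ± 4.44 in sham and 55.5% ± 8.66 in DOCA-salt mice. Connecting tubule cells held 0.641% ± 1.11 of Loxl2 in sham and 9.70% ± 5.58 in DOCA-salt mice. An unnamed cluster led by C3, Cp, Ncam1 and Wt1 held 43 of the 135 Loxl2 UMIs of sham kidneys, and endothelial cells held 24. In DOCA-salt kidneys the same cells held 205 and 79 of 1576.

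Mmp14 was spread over many types in sham mice, with 24.8% ± 1.89 (SD, n = 3) in endothelial cells and 18.5% ± 0.70 in the thick ascending limb. In DOCA-salt mice 55.2% ± 8.95 was in fibroblasts. Timp2 had 3.58% ± 2.83 in fibroblasts of sham and 36.3% ± 6.52 in those of DOCA-salt mice. The unnamed cluster led by C3, Cp, Ncam1 and Wt1 held 23.9% of all Timp2 UMIs over the 6 mice.

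The other members kept their main cells. Macrophages held 93.4% ± 2.80 (SD, n = 3) of Mmp13 in sham and 88.9% ± 7.46 in DOCA-salt mice, and 89.5% ± 2.81 and 84.2% ± 14.98 of Mmp12. DOCA-salt mouse 1 was the lowest, with 67.0% of Mmp12 and 80.4% of Mmp13 in macrophages, and with 15.9% and 15.1% in cycling cells. Proximal tubule cells held 75.4% ± 5.40 of Timp3 in sham and 62.9% ± 5.88 in DOCA-salt mice. They also held 47.5% and 34.9% of Adamts1, with endothelial cells next at 22.3% and 24.6%. Adam17 had 38.05% and 26.5% in proximal tubule cells, and its macrophage share was 5.03% ± 0.80 in sham and 17.6% ± 5.15 in DOCA-salt mice.

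**Figure D2:**
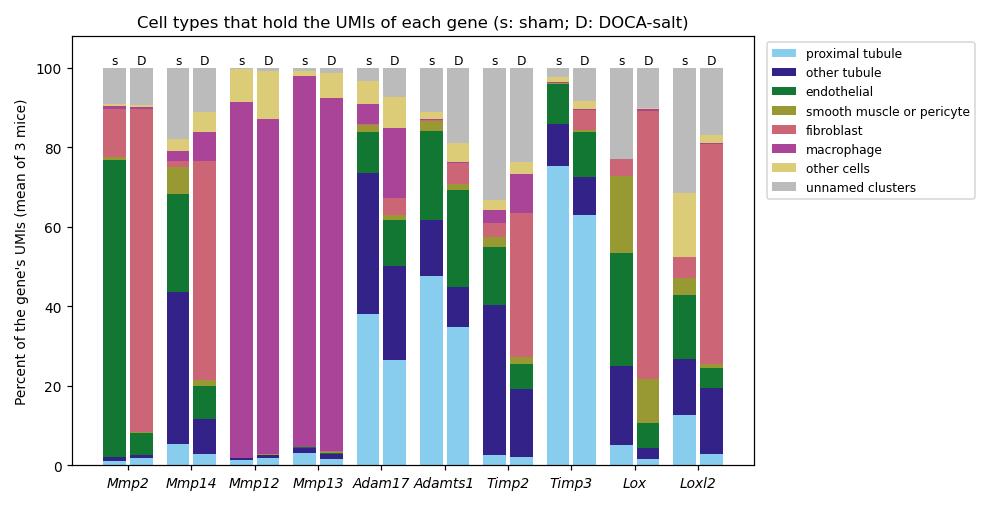
Percent of the UMIs of each member held by each group of cells, as the mean of 3 sham (s) and 3 DOCA-salt (D) mice. The fibroblast part of Mmp2 is 12.2% in sham and 81.4% in DOCA-salt mice, and macrophages hold most of Mmp12 and Mmp13 in both.

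Whole-kidney changes were computed again with cell types left out. Without fibroblasts 6 members still passed, with Mmp2 at a log2 change of 1.42, Loxl2 at 2.07, Mmp14 at 1.22 and Lox at 0.96 in place of 3.61, 3.14, 2.31 and 2.47. Timp2 no longer passed (0.32, adjusted p = 0.0772, edgeR), nor did Mmp12 (1.57, adjusted p = 0.0505). Without smooth muscle cells and pericytes as well, Lox was at 0.67 and did not pass (adjusted p = 0.0783), which left 5 members. Without macrophages Mmp13 was at 0.21 in place of -0.33, both short of the threshold, and Adam17 at 0.30 did not pass (adjusted p = 0.130), while Mmp12 was at 1.71 (adjusted p = 0.0174). Fibroblast markers had 6355 UMIs in sham kidneys, 4357 of them in fibroblasts. In DOCA-salt kidneys they had 117841 UMIs, of which 106447 were in fibroblasts. The rest stayed in the sums without fibroblasts, as did the unnamed cluster led by Bgn and Loxl1. The shares of all genes past the threshold in these fits are not given here.

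Within each cell type fewer members were called than over the whole kidney, and some were lower. In macrophages 6 members had enough UMIs to be tested, of which 1 was higher and 2 were lower. Of 9126 genes tested in these cells, 3.05% were higher and 3.28% lower.

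Mmp13 showed the clearest difference. It was at 573, 569 and 565 CPM in macrophages of sham mice and 99.8, 95.04 and 133 CPM in those of DOCA-salt mice. The sham mice were nearly equal and each lay far above every DOCA-salt mouse. Mmp13 fell 5.47-fold (log2 change -2.45 ± 0.16 SE, adjusted p = 6.55e-07, edgeR). It passed the threshold in each of 16 alternatives, with log2 changes from -2.62 to -1.41.

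The share of macrophages with an Mmp13 UMI followed the level. With each cell thinned to 1000 UMIs it was 30.1%, 34.8% and 34.3% in sham and 5.80%, 8.06% and 8.55% in DOCA-salt mice. Cells under that depth were left out, 6 to 8 per sham mouse and 24 to 106 per DOCA-salt mouse. Unthinned shares were 59.6%, 55.4% and 58.6% in sham and 14.4%, 15.4% and 17.9% in DOCA-salt mice, at median depths of 3623 to 4177 and 4440 to 5121 UMIs. In proximal tubule cells, taken as the background, the unthinned share was 0.140% to 0.476% in the sham mice at median depths of 7779 to 10587 UMIs, and the thinned share at most 0.0631%. The macrophage shares lay far above this background.

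Macrophages of sham and DOCA-salt mice were spread unequally over the clusters, which were made without correction between libraries. A cluster led by Ccl4, Ccl3, Mmp13 and Tnf held 104, 38 and 109 cells of sham mice but 5, 5 and 16 of DOCA-salt mice, and 37.3% of all Mmp13 UMIs. A cluster led by C1qc and C1qa held 14, 63 and 7 cells of sham and 214, 199 and 248 of DOCA-salt mice. Sham mouse 2 had more cells here than in the first cluster. Within the C1qc cluster, Mmp13 was at 260, 546 and 620 CPM in sham and 93.8, 113 and 104 CPM in DOCA-salt mice. With the first cluster left out, Mmp13 in macrophages was still lower in DOCA-salt mice (log2 change -1.41, adjusted p = 0.00422, edgeR). A smaller cluster led by Ccl7 and Cxcl9 had 144 CPM over its 26 sham cells and 148 CPM over its 270 DOCA-salt cells. A cluster of 48 cells with Mmp13 as its leading gene had 188 CPM over 13 sham cells and 106 CPM over 35 DOCA-salt cells, and 2.91% of all Mmp13 UMIs.

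Mmp12 was at 424, 727 and 292 CPM in macrophages of sham and 179, 472 and 318 CPM in those of DOCA-salt mice. The groups overlapped, and the log2 change of -0.63 ± 0.30 SE did not pass the test (adjusted p = 0.272, edgeR). It passed without DOCA-salt mouse 2 (-1.02, adjusted p = 0.0293) and with no filter on low counts (-0.54, adjusted p = 0.0221), and was at -0.03 without the sham-rich cluster. The thinned share of macrophages with an Mmp12 UMI was 19.6%, 23.5% and 16.4% in sham and 5.80%, 6.52% and 8.06% in DOCA-salt mice. The share was lower in every DOCA-salt mouse while the mean level overlapped. A cluster of 61 cells led by Mmp12, Retnla and Ccl6, with 11, 26 and 24 cells of the DOCA-salt mice and 0 of the sham mice, held 2281 Mmp12 UMIs or 48.9% of the total. In its cells Mmp12 was at 1071, 3453 and 2098 CPM, but Mmp13 at 0, 33.8 and 47.3 CPM.

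Mmp14 in macrophages was at 8.22, 3.39 and 7.39 CPM in sham and 15.9, 29.8 and 21.0 CPM in DOCA-salt mice. It rose 3.35-fold without overlap, from 12 UMIs in all sham macrophages (log2 change 1.75 ± 0.43 SE, adjusted p = 0.0226, edgeR). The call was lost without any sham mouse or without DOCA-salt mouse 2 (adjusted p = 0.0577 to 0.0777), and without the sham-rich cluster led by Ccl4 (1.23, adjusted p = 0.282). The cluster led by Mmp12 had Mmp14 at 67.5 CPM, against 14.1 CPM in the DOCA-salt cells of the C1qc cluster. The 7 fibroblast markers, all detected in macrophages, summed to 0 to 1.85 CPM in sham and 17.8 to 33.7 CPM in DOCA-salt mice. Per 100 of their UMIs there were 89.0 Mmp14 UMIs in DOCA-salt macrophages and 1.505 in fibroblasts. In sham macrophages these markers had 2 UMIs in all. Injured tubule, parietal epithelium, thin limb and cycling markers in macrophages were also higher in every DOCA-salt mouse, and proximal tubule markers lower. The part of these markers in the result was not tested.

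Timp3 in macrophages was at 392, 263 and 211 CPM in sham and 203, 142 and 185 CPM in DOCA-salt mice, lower in every DOCA-salt mouse (log2 change -0.79 ± 0.19 SE, adjusted p = 0.0225, edgeR). The 10 proximal tubule markers, all detected, summed to 1729 to 1996 CPM in sham macrophages and 884 to 1077 CPM in those of DOCA-salt mice. Per 100 UMIs of these markers, macrophages had 15.7 Timp3 UMIs in sham and 17.9 in DOCA-salt mice, and proximal tubule cells 20.1 and 21.4. Other tubule markers in macrophages overlapped or were higher in DOCA-salt mice, with connecting tubule markers at 652 to 1002 CPM in sham and 773 to 899 CPM in DOCA-salt mice, and injured tubule markers at 69.4 to 80.9 CPM and 123 to 244 CPM. The part of the tubule markers in the result was not tested. The call was also lost without sham mouse 1, DOCA-salt mouse 2 or DOCA-salt mouse 3 (adjusted p = 0.0575 to 0.162), without doublet removal (-0.48, adjusted p = 0.182) and with finer clusters (-0.52, adjusted p = 0.114).

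The other 2 members tested in macrophages did not pass. Timp2 was at 162, 130 and 128 CPM in sham and 200, 220 and 175 CPM in DOCA-salt mice (adjusted p = 0.123, edgeR), and passed with no filter on low counts (adjusted p = 0.0489). Adam17 was at 133, 212 and 150 CPM in sham and 189, 190 and 227 CPM in DOCA-salt mice, with a log2 change of 0.23 and an interval from -0.11 to 0.57. TNF, the best known target of ADAM17, was lower in macrophages of DOCA-salt mice as a transcript. Tnf was at 736, 640 and 737 CPM in sham and 261, 321 and 365 CPM in DOCA-salt mice (log2 change -1.23 ± 0.16 SE, adjusted p = 0.000257, edgeR). Mertk, a receptor for dying cells that ADAM17 also sheds, was higher (1.37 ± 0.18 SE, adjusted p = 0.000388). Of 8 ADAM17 substrates tested in macrophages these were the only ones called, and 6 did not pass, with a median log2 change of 0.01. Of all genes tested there, 3.05% were higher and 3.28% lower. Tnf was also a leading gene of the sham-rich cluster led by Ccl4. Its change without that cluster is not given here, and the part of the cluster in the result was not tested.

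**Figure D3:**
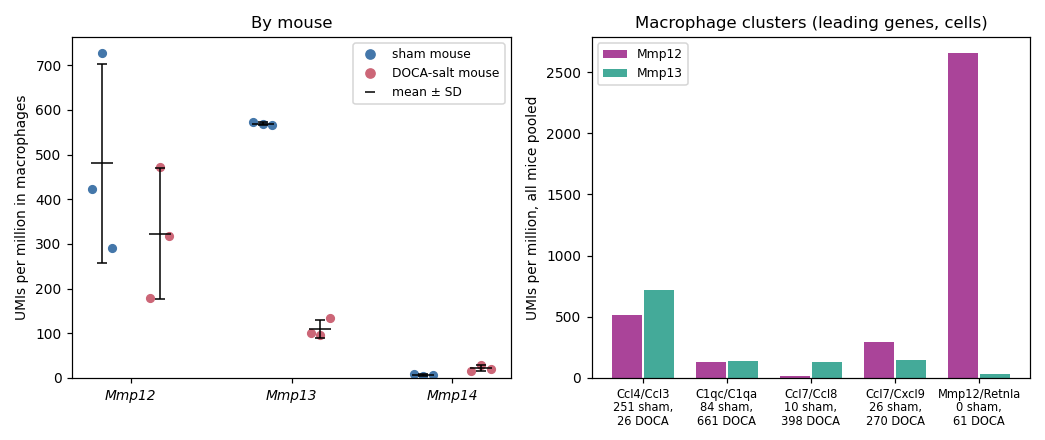
Left, Mmp12, Mmp13 and Mmp14 in macrophages of each mouse, in CPM with the mean ± SD of 3 mice. Right, Mmp12 and Mmp13 in 5 macrophage clusters with the mice pooled, named by their 2 leading genes and with the number of sham and DOCA-salt cells; of these 5, Mmp13 is highest in the sham-rich cluster and Mmp12 in the cluster found in DOCA-salt mice.

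Fibroblasts, the matrix-producing cells of the interstitium, carried most of Mmp2, Lox, Loxl2 and Mmp14 in DOCA-salt mice. Sham mice gave 21, 7 and 9 fibroblasts and DOCA-salt mice 212, 290 and 297. Just 1 sham mouse reached the 10 cells set for a test, so the fit was made on every mouse and added after the data were seen. Of 9789 genes tested, 1.64% were higher, and 1 of 8 members was.

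Mmp14 in fibroblasts was at 48.7, 38.7 and 0 CPM in sham, from 7 UMIs, and 119, 191 and 158 CPM in DOCA-salt mice. It was higher without overlap (log2 change 2.25 ± 0.53 SE, adjusted p = 0.0201, edgeR). Smooth muscle and pericyte markers in fibroblasts summed to 565 to 2586 CPM in sham and 2768 to 3961 CPM in DOCA-salt mice, endothelial markers to 97.4 to 406 CPM and 596 to 844 CPM, and connecting tubule markers to 477 to 593 CPM and 986 to 1313 CPM. Macrophage markers reached 1026 CPM in sham mouse 2 and proximal tubule markers 3080 CPM in sham mouse 3. The part of these markers in the result was not tested. Mmp2 was at 117, 58.1 and 132 CPM in sham and 215, 249 and 235 CPM in DOCA-salt mice, also without overlap but short of the threshold (log2 change 1.11 ± 0.36 SE, adjusted p = 0.101). With DESeq2 Mmp2 passed (adjusted p = 0.0439). Lox was at 39.0, 0 and 132 CPM in sham and 131, 127 and 127 CPM in DOCA-salt mice, which overlapped.

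Loxl2 in fibroblasts was at 9.74, 58.1 and 32.9 CPM in sham and 66.9, 113 and 79.3 CPM in DOCA-salt mice (adjusted p = 0.171, edgeR). Timp2 was at 1987, 600 and 1104 CPM in sham and 718, 642 and 708 CPM in DOCA-salt mice. With so few sham cells, the intervals for these members were wide, from 0.44 to 2.78 for Loxl2 and from -1.66 to -0.15 for Timp2 on the log2 scale before adjustment. The clusters differed as well, and that led by Ptn, Mgp and Timp1 held 302 DOCA-salt cells but 1 sham cell.

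Smooth muscle cells and pericytes, the contractile cells around vessels, had 6 members tested and 1 higher, against 0.452% of 7073 genes. Lox was at 29.3, 37.4 and 34.0 CPM in sham and 124, 100 and 116 CPM in DOCA-salt mice. It rose 3.29-fold without overlap (log2 change 1.72 ± 0.23 SE, adjusted p = 0.00946, edgeR). Both clusters of these cells showed it, from 38.8 to 130 CPM in that led by Acta2 and from 28.1 to 96.9 CPM in that led by Rgs5. The call was lost without sham mouse 1 (1.61, adjusted p = 0.0880). Of the 7 fibroblast markers 6 were detected in these cells and Dpt was at 0. They summed to 216 to 233 CPM in sham and 389 to 595 CPM in DOCA-salt mice. Macrophage markers summed to 9.07 to 14.5 CPM and 22.3 to 40.3 CPM. Proximal tubule markers were lower, at 802 to 1323 CPM and 334 to 766 CPM. Genes that respond to tissue dissociation were lower as well, at 26272 to 29569 CPM and 21425 to 24142 CPM. The part of all these genes in the result was not tested.

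In endothelial cells 8 members were tested and 1 was lower, with 3.65% of 12715 genes lower. Timp2 was at 126, 106 and 112 CPM in sham and 85.2, 65.0 and 57.0 CPM in DOCA-salt mice. The groups did not overlap (log2 change -0.72 ± 0.15 SE, adjusted p = 0.0150, edgeR). The 6 thin limb markers, all detected in endothelial cells, summed to 379 to 441 CPM in sham and 109 to 153 CPM in DOCA-salt mice, and the 5 connecting tubule markers to 295 to 619 CPM and 184 to 213 CPM. Their part in the result was not tested. The endothelial cells of sham and DOCA-salt mice were spread unequally over clusters. That led by Plvap and Cd300lg held 390 sham and 50 DOCA-salt cells. That led by Selp held 53 and 444, and that led by Gpihbp1 held 32 and 214. That led by Esm1, Igfbp3 and Kdr held 218 and 654. Timp2 in the clusters led by Plvap and by Esm1 is not given here. The part of this spread in the result was not tested. For Timp2 the endothelial clusters went both ways. In the 3 clusters with most Timp2 UMIs the pooled DOCA-salt cells were not lower, at 311 CPM in sham and 426 CPM in DOCA-salt mice in the cluster led by Stmn2, Cldn5 and Fbln2, at 177 and 190 CPM in that led by Slc14a1 and at 63.1 and 75.1 CPM in that led by Epha6. In the cluster led by Ehd3 and Plat they were lower, at 142 and 97.1 CPM, as they were in those led by Selp, at 44.6 and 23.6 CPM, by Cldn5 and Icam2, at 140 and 35.4 CPM from 25 and 8 UMIs, and by Gpihbp1, at 31.0 and 14.3 CPM. Of these clusters only that led by Slc14a1 was fitted alone (log2 change 0.11, adjusted p = 0.910, edgeR). Summed over the clusters with at least 10 cells in every mouse, the log2 change was 0.20 (adjusted p = 0.716), while without the cluster led by Stmn2 alone it was -0.73 (adjusted p = 0.0107). The call was also lost without sham mouse 1, sham mouse 3, DOCA-salt mouse 2 or DOCA-salt mouse 3 (adjusted p = 0.0518 to 0.0647).

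Mmp2 in endothelial cells was at 12.9, 13.2 and 13.6 CPM in sham and 11.4, 8.34 and 5.58 CPM in DOCA-salt mice, lower in each but short of the threshold (log2 change -0.65 ± 0.26 SE, adjusted p = 0.162, edgeR). The cluster led by Stmn2 gave 34, 27 and 46 cells in sham and 17, 22 and 9 in DOCA-salt mice, and in it Mmp2 was at 109 and 146 CPM. With that cluster left out the log2 change was 0.39. Timp3 was at 4032, 5349 and 4511 CPM in sham and 3933, 3135 and 3562 CPM in DOCA-salt mice, apart but short of the threshold (adjusted p = 0.211). The other 5 members tested overlapped between the groups.

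**Figure D4:**
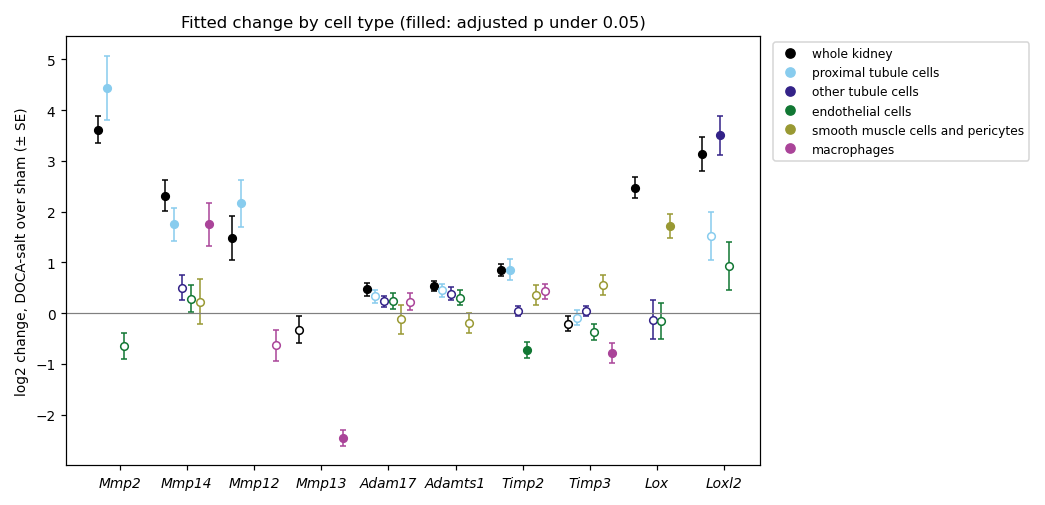
Log2 change from sham to DOCA-salt mice with its standard error, for each member tested in the whole kidney and in 5 groups of cells (n = 3 mice each). Filled points have an adjusted p under 0.05; Mmp13 is at -2.45 in macrophages and -0.33 in the whole kidney, and Timp2 is above 0 in the whole kidney and below 0 in endothelial cells.

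Proximal tubule cells had 8 members tested and 4 higher, with 4.92% of 16048 genes higher, but at very low levels. Mmp2 had 2 UMIs in all sham and 50 in all DOCA-salt proximal tubule cells, a ratio of 26.3 with a counting interval from 6.91 to 223 (95%, exact). By mouse it was at 0.0344, 0 and 0 CPM in sham and 0.375, 0.399 and 0.357 CPM in DOCA-salt mice (adjusted p = 0.00589, edgeR). The 7 fibroblast markers, all detected in these cells, summed to 0.342 to 2.20 CPM in sham and 11.7 to 17.3 CPM in DOCA-salt mice. Per 100 of their UMIs there were 2.52 Mmp2 UMIs in DOCA-salt proximal tubule cells and 2.19 in fibroblasts. In sham mice these were 1.12, from 2 Mmp2 UMIs, and 0.528. The part of fibroblast transcripts in the result was not tested.

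Mmp14 was at 0.136 to 0.206 CPM in proximal tubule cells of sham and 0.473 to 0.715 CPM in those of DOCA-salt mice (log2 change 1.75 ± 0.33 SE, adjusted p = 0.0170, edgeR). Mmp12 was at 0.0817 to 0.114 CPM in sham and 0.256 to 0.684 CPM in DOCA-salt mice (2.16 ± 0.47 SE, adjusted p = 0.0280). Timp2 was at 1.68, 1.07 and 1.72 CPM in sham and 2.80, 3.03 and 2.56 CPM in DOCA-salt mice (0.86 ± 0.21 SE, adjusted p = 0.0457). Each of these 3 calls was lost without sham mouse 3, DOCA-salt mouse 2 or DOCA-salt mouse 3, those of Mmp12 and Timp2 also without sham mouse 1, and that of Timp2 also without DOCA-salt mouse 1. The adjusted p then reached 0.0736 for Mmp14, 0.105 for Mmp12 and 0.137 for Timp2. The 8 macrophage markers in proximal tubule cells summed to 41.6 to 67.6 CPM in sham and 67.4 to 77.6 CPM in DOCA-salt mice, and overlapped. Endothelial markers there summed to 11.7 to 22.4 CPM in sham and 27.6 to 41.99 CPM in DOCA-salt mice, injured tubule markers to 63.4 to 70.2 CPM and 104 to 148 CPM, parietal epithelium markers to 11.8 to 14.4 CPM and 25.9 to 36.3 CPM, and thin limb markers to 50.04 to 57.4 CPM and 77.3 to 93.6 CPM. Smooth muscle and pericyte markers summed to 11.7 to 18.4 CPM in sham and 18.9 to 29.0 CPM in DOCA-salt mice. Connecting tubule markers were lower, at 136 to 361 CPM and 104 to 133 CPM. The part of these markers in the 3 results was not tested.

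The 3 members with most UMIs in proximal tubule cells did not pass. Timp3 was at 2990, 2693 and 2271 CPM in sham and 2664, 2560 and 2532 CPM in DOCA-salt mice. Its log2 change of -0.09 had an interval from -0.37 to 0.19. Adamts1 was at 62.5, 42.6 and 53.6 CPM in sham and 75.9, 72.4 and 77.0 CPM in DOCA-salt mice, without overlap (log2 change 0.45 ± 0.13 SE, adjusted p = 0.0684, edgeR). It passed in 4 of 15 alternatives, which were DESeq2 (adjusted p = 0.0313), at most 20% mitochondrial UMIs (0.0188), no filter on low counts (0.0456) and leaving out sham mouse 2 (0.0455). Adam17 was at 16.2, 18.2 and 15.5 CPM in sham and 19.6, 20.2 and 25.8 CPM in DOCA-salt mice, also without overlap (0.33 ± 0.13 SE, adjusted p = 0.159). Loxl2, with 14 UMIs in sham and 40 in DOCA-salt mice, did not pass either (log2 change 1.51). It passed without sham mouse 2 (1.97, adjusted p = 0.0369, edgeR).

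In the rest of the tubule 7 members were tested and 1 was higher, with 3.26% of 15542 genes higher. Loxl2 was at 0.368, 0.133 and 0.593 CPM in sham and 3.63, 5.37 and 3.64 CPM in DOCA-salt mice (log2 change 3.50 ± 0.39 SE, adjusted p = 0.00242, edgeR). It passed in each of 15 alternatives. The segments were then fitted singly, a step added after the data were seen.

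Connecting tubule cells, the segment between the distal convoluted tubule and the collecting duct, held 140 of the 246 Loxl2 UMIs of these cells in DOCA-salt mice. They numbered 152, 191 and 247 in sham and 120, 103 and 126 in DOCA-salt mice, and 3 of 6 members tested were higher, with 11.3% of 10031 genes higher. Loxl2 was at 0.726, 0 and 0 CPM in sham, which was 1 UMI in all, and at 34.0, 40.2 and 24.8 CPM in DOCA-salt mice, which was 140 UMIs. The ratio was 160 with a counting interval from 28.2 to 6361, and the adjusted p was 2.48e-06 (edgeR). Loxl2 passed without any single mouse and with DESeq2.

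Mmp14 in connecting tubule cells was at 0.726, 0 and 1.15 CPM in sham, from 3 UMIs, and 10.7, 17.9 and 10.8 CPM in DOCA-salt mice, from 55 UMIs. The ratio was 20.9 with a counting interval from 6.80 to 105 (adjusted p = 0.000309, edgeR). Timp2 was at 5.81, 10.4 and 8.03 CPM in sham and 18.9, 28.7 and 25.9 CPM in DOCA-salt mice (log2 change 1.40 ± 0.31 SE, adjusted p = 0.00439). The groups were apart for all 3 members.

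Other markers moved in the connecting tubule cells as well. The 6 markers of injured tubule, all detected, summed to 124 to 221 CPM in sham and 501 to 755 CPM in DOCA-salt mice. The 5 markers of parietal epithelium summed to 1.30 to 11.6 CPM and 142 to 298 CPM, and the 5 connecting tubule markers to 41194 to 55252 CPM and 24904 to 31515 CPM. Of the fibroblast markers Lum was at 0 and the rest summed to 0.574 to 1.45 CPM and 13.9 to 20.5 CPM. The part of these markers in the result was not tested.

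In neighboring segments Loxl2 was too sparse for the filter of the test. Principal cells had 2 Loxl2 UMIs in sham and 25 in DOCA-salt mice, a ratio of 14.1 with a counting interval from 3.51 to 122. Intercalated cells had 2 and 45, a ratio of 22.0 from 5.74 to 187. In both the DOCA-salt mice were each above the sham mice. Fibroblast markers summed to 0.459 to 2.30 CPM in principal cells of sham and 7.97 to 33 CPM in those of DOCA-salt mice, and to 22.4 to 36.3 CPM and 63.4 to 83.8 CPM in intercalated cells. Parietal epithelium markers summed to 14.2 to 15.2 CPM and 37.6 to 95.5 CPM in principal cells, and to 7.68 to 11.3 CPM and 19.4 to 53 CPM in intercalated cells. Connecting tubule markers in principal cells summed to 1000 to 1296 CPM and 1642 to 2483 CPM. Macrophage markers summed to 5.05 to 11.5 CPM and 27.7 to 67.1 CPM in principal cells. In intercalated cells they summed to 8.26 to 12.9 CPM and 19.9 to 35.3 CPM. Injured tubule markers in intercalated cells summed to 34.1 to 56.1 CPM and 68.6 to 151 CPM. Genes that respond to tissue dissociation summed there to 8532 to 11877 CPM and 6831 to 7881 CPM. The part of these genes was not tested. In the distal convoluted tubule there were 9 and 26 UMIs, at 1.60, 1.13 and 3.74 CPM in sham and 1.09, 4.79 and 2.81 CPM in DOCA-salt mice, which overlapped. In the thin limb there were 3 and 3 UMIs, and in the thick ascending limb 4 and 7.

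Distal convoluted tubule cells differed in Adamts1, which was at 0.799, 3.40 and 5.61 CPM in sham and 21.5, 21.4 and 43.5 CPM in DOCA-salt mice. It rose 7.19-fold without overlap (log2 change 2.85 ± 0.46 SE, adjusted p = 0.000797, edgeR), with 1 of 3 members higher against 4.65% of 10027 genes, and passed in each of 7 alternatives. Their log2 changes ran from 2.38 to 3.71. With each cell thinned to 1000 UMIs, 0%, 0.769% and 1.30% of cells had an Adamts1 UMI in sham mice. In DOCA-salt mice the thinned shares were 2.46%, 0.949% and 2.71%, which overlapped with sham. The 21 genes that respond to tissue dissociation summed to 5287 to 6354 CPM in these cells of sham and 7882 to 12555 CPM in those of DOCA-salt mice. Of the 6 injured tubule markers 5 were detected there, with Krt20 at 0, and summed to 79.4 to 105 CPM in sham and 270 to 342 CPM in DOCA-salt mice. Macrophage markers summed to 9.07 to 23.1 CPM and 44 to 46.7 CPM, and fibroblast markers to 0 to 2.49 CPM and 8.02 to 17.5 CPM. Endothelial markers summed to 10.2 to 29.6 CPM in sham and 31.8 to 59.5 CPM in DOCA-salt mice. Thin limb markers were at 46.5 to 61.6 CPM and 82.4 to 113 CPM. Cycling markers were at 1.13 to 4.80 CPM and 10.1 to 22.3 CPM. Parietal epithelium markers were at 3.40 to 8.11 CPM and 8.75 to 11.6 CPM. The part of these genes in the result was not tested. In the thick ascending limb Adamts1 was at 6.57, 7.97 and 7.99 CPM in sham and 14.5, 11.7 and 13.99 CPM in DOCA-salt mice, apart but just short of the threshold (adjusted p = 0.0508). Of the members tested in the thick ascending limb (5), the thin limb (6), principal cells (4) and intercalated cells (4), none passed by edgeR, where 0.757%, 0.568%, 4.68% and 3.07% of genes were higher. At an unadjusted p under 0.05 there were 1, 2, 3 and 2 members, all higher, beside 12.5%, 11%, 23.2% and 20.6% of all genes in either direction, and DESeq2 called 1 in principal cells and 0 in the others.

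**Figure D5:**
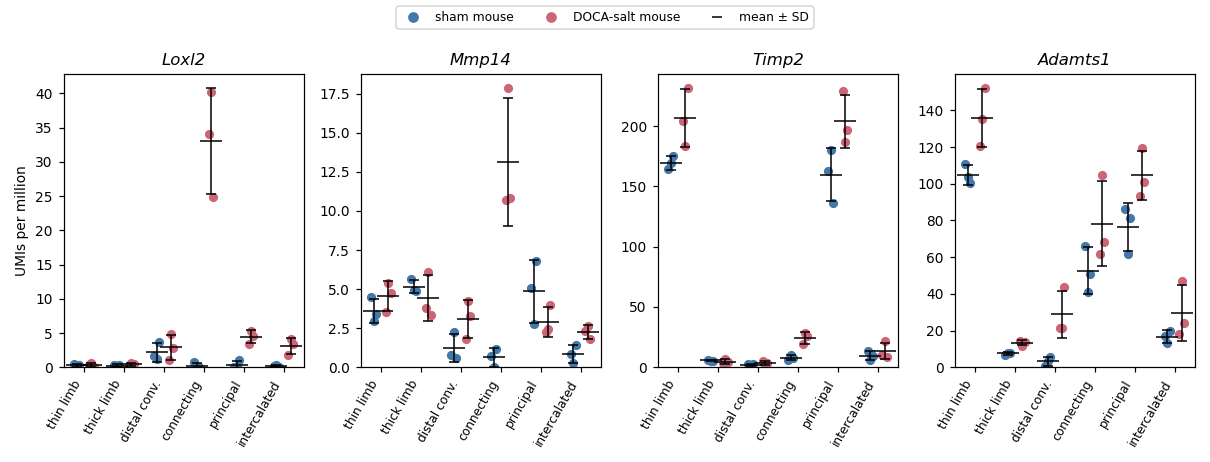
Loxl2, Mmp14, Timp2 and Adamts1 in 6 segments of the tubule beyond the proximal tubule, in CPM by mouse with the mean ± SD of 3 mice. Loxl2 and Mmp14 are highest in connecting tubule cells of DOCA-salt mice, while Timp2 is highest in thin limb and principal cells of both groups.

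The unnamed cluster led by C3, Cp, Ncam1 and Wt1 held 82, 109 and 114 cells of sham and 226, 238 and 284 of DOCA-salt mice. Fitted alone, a step added after the data were seen, it had 12155 genes tested with 11.1% higher and 11.7% lower. Timp2 was at 764, 744 and 604 CPM in sham and 269, 239 and 210 CPM in DOCA-salt mice, 2.78-fold lower (log2 change -1.48 ± 0.15 SE, adjusted p = 4.13e-05, edgeR). Mmp2 was at 3.88, 3.70 and 3.14 CPM in sham and 9.81, 11.05 and 9.12 CPM in DOCA-salt mice (1.56 ± 0.33 SE, adjusted p = 0.00474). Both kept their calls without any single mouse. Lox at -1.002, Adamts1 at -0.40 and Timp3 at 0.44 (log2) also passed, but lost their calls without 4, 5 and 5 of the 6 mice in turn (adjusted p up to 0.172). Only Lox without sham mouse 3 or DOCA-salt mouse 3, Adamts1 without sham mouse 3 and Timp3 without sham mouse 2 still passed. Proximal tubule markers in this cluster summed to 1334, 1882 and 2429 CPM in sham and 4980, 4474 and 4830 CPM in DOCA-salt mice. Parietal epithelium markers summed to 1770 to 2456 CPM in sham and 924 to 1036 CPM in DOCA-salt mice, thin limb markers to 1275 to 1834 CPM and 949 to 1108 CPM, and macrophage markers to 180 to 230 CPM and 80.3 to 103 CPM. Injured tubule markers summed to 1097 to 1333 CPM and 1434 to 1735 CPM, and the dissociation genes to 16300 to 23011 CPM and 12170 to 13591 CPM. The part of these genes in the results was not tested.

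The change of 3 members differed between cell types by a test of the difference itself, made with the mouse as a block. Timp2 changed by 0.43 in macrophages and by -0.72 in endothelial cells (log2), a difference of 1.30 ± 0.16 (SE, adjusted p = 2.47e-06, edgeR). Its change of 0.86 in proximal tubule cells differed from that in endothelial cells by 1.60 ± 0.18 (adjusted p = 3.02e-05). Both differences use the endothelial change, which did not go the same way in every cluster. Mmp14 differed between macrophages and endothelial cells by 1.59 ± 0.42 (adjusted p = 0.0204) and between proximal tubule and endothelial cells by 1.46 ± 0.39 (adjusted p = 0.0279). The first was lost without any mouse but DOCA-salt mouse 1 (adjusted p up to 0.133) and the second without any mouse but sham mouse 2 (adjusted p up to 0.113). Mmp2 differed between proximal tubule and endothelial cells by 4.93 ± 0.71 (adjusted p = 0.000373), with the low counts given above. Of the genes tested, 5.72% differed between macrophages and endothelial cells and 9.20% between proximal tubule and endothelial cells.

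Related genes from lists of the same pathways were read in the same fits. Of 112 tested over the whole kidney, 50 were higher and 3 lower, beside 11.5% and 5.69% of all genes, with a median log2 change of 0.56. These lists were also chosen with earlier results of these data known, so the counts are a description. By family, 7 of 12 other matrix metalloproteinases (and Mmp16 lower), 4 of 11 ADAM proteases and 14 of 19 ADAMTS genes were higher, as were 8 of 11 crosslinking and procollagen processing genes and 6 of 7 matrix substrates. Inhibitors and iRhom partners had 1 of 9 higher and 1 lower, and protease activators 1 of 6 higher. Among the 3 brush border metallopeptidases 0 passed by edgeR, and 0 had an unadjusted p under 0.05. Of the 13 ADAM17 substrates, 7 were higher and 1 lower, and of 21 dissociation genes 2 were higher. Without fibroblasts the calls among the pathway genes, leaving out the dissociation list, fell from 51 to 33, and without smooth muscle cells and pericytes too to 31.

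The largest change among them was in Timp1, the TIMP that injured tissue induces. It was at 0.531, 0.515 and 0.384 CPM in sham and 23.5, 32.8 and 34.2 CPM in DOCA-salt mice, a 57.6-fold rise (log2 change 5.85 ± 0.20 SE, adjusted p = 2.53e-05, edgeR), beside 1.80-fold for Timp2. Fibroblasts held 88.2% ± 3.08 (SD, n = 3) of Timp1 in DOCA-salt mice. Fn1, the matrix protein fibronectin, Adamts2, which trims procollagen, and Loxl1, the lysyl oxidase of elastin, rose by 3.63, 3.61 and 3.05 on the log2 scale. Adam12, Bmp1, Adam19 and Axl rose by 2.77, 2.19, 2.17 and 2.06.

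Other genes changed within cell types. In endothelial cells Adamtsl2 (log2 change 2.42), Timp1 (2.27), Adam19 (1.75) and the basement membrane collagens Col4a1 (1.66) and Col4a2 (1.59) were higher. Fbln2, a leading gene of the cluster led by Stmn2, was lower (-1.21). That cluster was among several with fewer cells in DOCA-salt mice. The endothelial cells of the groups were spread unequally over clusters, as given above, and the part of this in these changes was not tested. In proximal tubule cells Adamts15 was 1.99-fold higher, from 3.65 ± 0.24 to 7.57 ± 0.64 CPM (SD, n = 3). In the rest of the tubule Spock3 was 9.33-fold lower, from 26.2 ± 7.51 to 2.78 ± 1.03 CPM, and Adamts16 was 2.84-fold higher. These cells pool segments whose numbers differed. Distal convoluted tubule cells numbered 677 in sham and 904 in DOCA-salt mice, connecting tubule cells 590 and 349, and a thick ascending limb cluster led by Robo2 and Nos1 held 59 and 12. In macrophages Fn1 went from 2.66 ± 0.77 to 85.7 ± 38.6 CPM (4.87 ± 0.61 SE, adjusted p = 0.000249, edgeR). Macrophages too were spread unequally over clusters. The part of the mix of cells in these changes was not tested.

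Across 103 sums of mouse and cell type, the gene whose level ran closest to Mmp2 was Pdgfra (Pearson r = 0.92 of log2 CPM plus 1, among 12092 genes). Lox ran closest to Col6a3 (0.93), Mmp12 to Mgl2 (0.89) and Mmp13 to Mmp12 (0.80). Adamts1 ran closest to Col4a1 (0.90), and Timp3 to Mpdz (0.87) and then Spats2l (0.87) and Adamts1 (0.86). Adam17 ran closest to Skil (0.84), Loxl2 to Galnt17 (0.78) and Timp2 to Ilk (0.75). For Mmp14 it was Gm56768 (0.84), which overlaps Mmp14 on the same strand so that reads may be split between them. These values are descriptions, since the sums share mice, libraries and depth.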

How the data were processed

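Kidney cells of 3 sham and 3 DOCA-salt mice were analysed from the deposited matrices, which hold raw UMI counts that the authors made with Cell Ranger (version 9.0.0 in the submitters' notes, 8.0.1 in the matrix headers) on GRCm39. The annotation release is not given in the sources used here. Barcodes with at least 500 UMIs and 170 genes, at most 50% mitochondrial and 5% hemoglobin UMIs were kept. In each mouse the barcodes with the highest Scrublet doublet scores were then removed. Their number was set by an assumed rate of 0.8% per 1000 barcodes and came to 4931 in all. Cells were clustered with scanpy 1.11.5 on 2000 variable genes without the members and related genes (30 components, 15 neighbors, Leiden resolution 1) and named from at least 3 detected markers. The clustering made no correction between libraries. For each mouse, the UMIs of all cells of a type were added up and tested with edgeR 4.0.16 (filterByExpr, TMM, quasi-likelihood test, Benjamini-Hochberg over all genes tested, threshold 0.05) in R 4.3.3, for mice with at least 10 cells of the type. DESeq2 1.42.0, other filters, scalings and clusterings and leaving out each mouse were the alternatives. The fits of the whole kidney, proximal tubule, other tubule, endothelial, smooth muscle and macrophage cells were tested on simulated data with a fixed spread. So were the tests of differences between cell types. The fits of fibroblasts, single segments and single clusters were not simulated. Calls resting on a few sham UMIs were not simulated on their own.

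The members and lists were chosen with earlier results of these data known. All 10 members are named, and of the related genes up to 8 per comparison with the largest log2 change among those past the threshold, without overlap and with a mean of at least 5 CPM. Genes running closest to a member had the highest Pearson r. Depth ranged from 93172739 to 137819127 UMIs per library. Intervals on counts and shares cover counting error only.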

Additional observations from a re-analysis of the deposited data

Results flagged for a closer look

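The change between sham and DOCA-salt mice differed between cell types for 3 members, by edgeR's quasi-likelihood test of the difference with Benjamini-Hochberg adjustment. Timp2 differed by 1.30 on the log2 scale between macrophages and endothelial cells and by 1.60 between proximal tubule and endothelial cells. Mmp14 differed by 1.59 and 1.46 in the same comparisons. Mmp2 differed by 4.93 between proximal tubule and endothelial cells, from 2 UMIs in the proximal tubule cells of sham mice.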

How the results depend on the processing

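Over 841 alternative values of single members, 734 kept their direction and their side of the threshold, 79 lost a call, 10 gained one and 18 changed sign. The changed signs were small and never called. They were Timp2 (0.20) and Timp3 (0.13) in endothelial clusters with at least 10 cells in every mouse, Mmp2 in endothelial cells without the cluster led by Stmn2 (0.39), Adam17 in fibroblasts with DESeq2 (-0.12), Mmp13 in the whole kidney without macrophages (0.21), Timp2 (-0.0034) and Timp3 (-0.00076) in other tubule cells scaled by library size, Timp3 there without doublet removal (-0.0571), and, in smooth muscle cells and pericytes, Adam17 with finer clusters (0.00052) and Adamts1 without doublet removal (0.0803). Leaving out 1 mouse gave log2 changes from -0.55 to 0.0445 for Lox in endothelial cells, -0.37 to 0.10 for Lox and -0.0384 to 0.13 for Timp2 in other tubule cells, -0.35 to 0.29 for Adam17 and -0.29 to 0.66 for Mmp14 in smooth muscle cells and pericytes, and -0.11 to 0.21 for Timp2 in the cluster led by Slc14a1. The cause was not tested.

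Without 1 mouse, the members called numbered 6 to 8 in the whole kidney, 1 to 3 in macrophages, 0 to 1 in endothelial cells, 1 to 6 in proximal tubule cells and 0 to 1 in smooth muscle cells and pericytes. Those whose change differed between macrophages and endothelial cells numbered 1 to 2, and between proximal tubule and endothelial cells 2 to 3. The calls among pathway genes numbered 38 to 55. Members called were 5 in macrophages with no filter on low counts, 1 in proximal tubule cells with at most 20% mitochondrial UMIs (Adamts1, with Timp2 not called and Mmp2, Mmp12 and Mmp14 too low to be among the 4 members tested), 3 in smooth muscle cells and pericytes without doublet removal, 0 in endothelial clusters with at least 10 cells in every mouse and 5 in the whole kidney without fibroblasts, smooth muscle cells and pericytes. The difference between macrophages and endothelial cells held for 1 member with DESeq2, with finer clusters or with no mouse block. Pathway genes called were 33 without fibroblasts and 31 without smooth muscle cells and pericytes too. The shares of all genes called in these fits, and in those with the replicate block, are not given here. These counts alone therefore do not set the members apart from other genes.

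Deviations from the group mean in mice of the same number had r = -0.08, -0.70 and -0.18 over 11233 genes. Between mice of different numbers r was -0.53 to 0.54. Centering on 3 mice per group ties these values, so they cannot show whether the numbers pair the mice. Sham mouse 3 and DOCA-salt mouse 3 had the lowest median depth of their groups, at 4787 and 5869 UMIs per cell. With the replicate block 6 members were called in the whole kidney, 2 in macrophages, 1 in proximal tubule cells and 44 pathway genes. Fibroblasts were computed again with DESeq2 alone, without leaving out mice. The 7 to 21 fibroblasts per sham mouse, and the few UMIs of Mmp2, Mmp12 and Mmp14 in tubule cells, limit what these data can show.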
